A study of Mus musculus with 12 samples.

Results

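Of 11 malignant peripheral nerve sheath tumours profiled for DNA copy number, 3 carried a high-level amplification of Myc: A202, A390 and B76. They were chosen from the data. The single array probe named Myc had to show a tumour over reference ratio of at least 2 on the log2 scale, and the remaining 8 tumours formed the comparison group. The measurement was array comparative genomic hybridisation, in which tumour DNA and reference DNA compete for the same oligonucleotide probes. A log2 ratio of 0 means the typical copy number of that tumour, because the autosomal median of every array was set to 0.

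All 11 tumours came from transgenic mice of genotype P0-GGFβ3, in which the neuregulin-1 isoform GGFβ3 is overexpressed in Schwann cells under a P0 promoter. Among the amplified tumours, A202 (passage 6) and A390 (passage 7) arose in mice of mixed background, C57BL/6J x SJL/J, and B76 (passage 13) in C57BL/6J mice. The others were A18, 231 Trig, A292, A382 and A394 on the mixed background, and B86, B91 and B96 on C57BL/6J, at passages 5 to 11 where a title gives one. Every culture was begun with forskolin and NRG1β and then carried on without them, for at most 5 to 8 passages by the growth notes, although 4 of the titles give a higher number. The reference on all arrays was DNA of non-neoplastic Schwann cells from wild-type C57BL/6J mice, which had been kept in forskolin and NRG1β throughout. Tumour DNA was labelled with Cy5 and reference DNA with Cy3, without dye swap. Each tumour is 1 culture, and DNA ratios cannot show whether its cells were the labelled cell type.

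Myc is a transcription factor that pairs with Max on E-box sequences and drives genes of ribosome production, metabolism and cell division. Amplification of its locus is a common way for tumours to raise its dose. Excess Myc also triggers the p19Arf and p53 safeguard, and Arf is encoded at the Cdkn2a locus.

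The oligonucleotides on which the Myc class and the Cdkn2a comparison rest are shown here as the array files give them, in mm9 coordinates, with the strand not given. The Myc probe lies at chr15:61818043-61818102 and alone decided the class. The Cdkn2a probes lie at chr4:88934358-88934417 and chr4:88938065-88938124.
Myc: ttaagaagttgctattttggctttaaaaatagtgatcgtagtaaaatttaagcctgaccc
Cdkn2a, first probe: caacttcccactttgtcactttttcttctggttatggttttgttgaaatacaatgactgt
Cdkn2a, second probe: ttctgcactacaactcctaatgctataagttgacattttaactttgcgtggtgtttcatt

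The arrays were printed 4 to a slide. Each of the 3 slides held exactly 1 amplified tumour, A202 on slide 1, A390 on slide 2 and B76 on slide 3. Probe-to-probe noise was 0.204 to 0.246 on slide 1, which was read on another scanner, and 0.180 to 0.208 on the others. It was 0.20 ± 0.01 (SD, n = 3) in the amplified tumours and 0.21 ± 0.03 (SD, n = 8) in the others. A ratio averages over the cells of a culture, so a change in all cells and a deeper change in some of them cannot be told apart. The tumours were treated as separate samples because the labels name them apart, and p-values measure only the spread between these samples.

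The Myc probe read 2.40 in A202, 3.30 in A390 and 4.47 in B76. In the others it ran from -0.19 in A292 through a median of 0.01 to 0.39 in A18. These values fixed the groups and carry no test: A202 was the nearest tumour above the threshold of 2 and A18 the nearest below it. The amplified segment that held Myc covered 1503 kb in A202 (12 probes, mean 2.42), 3086 kb in A390 (15 probes, mean 3.00) and 2049 kb in B76 (9 probes, mean 4.36). Probes were sparse there, which limits how well its edges were placed. In B76 the Myc probe was the last one of its segment, so the distal edge fell between that probe and chr15:61965665.

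The rest of chromosome 15 differed in form among the amplified tumours. Outside the window from 58 to 65 Mb its median was 0.04 in A202, 0.20 in A390 and 0.23 in B76, within the range of -0.15 to 0.40 in the others. In A202 the only other called segment of the chromosome was next to the Myc segment, at chr15:63549968-65559982 with a mean of 0.39. In A390 a segment at chr15:63755453-64098743, 6 probes at a mean of 2.42 over Cyrib and Asap1, lay directly distal to the Myc segment. A390 also carried a pair of stretches away from it at nearly the same height as Myc. The first, chr15:3229082-4824354, had a mean of 2.97 over 24 probes and held Ghr, the growth hormone receptor, Oxct1, which breaks down ketone bodies, and Fbxo4, a ubiquitin ligase component. The second, chr15:71284306-72565804, had a mean of 3.09 over 8 probes, and the genes in it included the cDNAs AK043571, AK005816 and AK010095. B76 had 5 further raised segments proximal to Myc, above the 0.21 to 0.24 of the chromosome around them. The highest, chr15:32492258-33312360, had a mean of 1.57 and held Sema5a, an axon guidance molecule, Cpq, a peptidase, and Sdc2, a heparan sulphate proteoglycan. The other 4 segments had means of 0.70 to 0.85. These stretches were seen in 1 tumour each, and all of chromosome 15 is given as description.

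**Figure D1:**
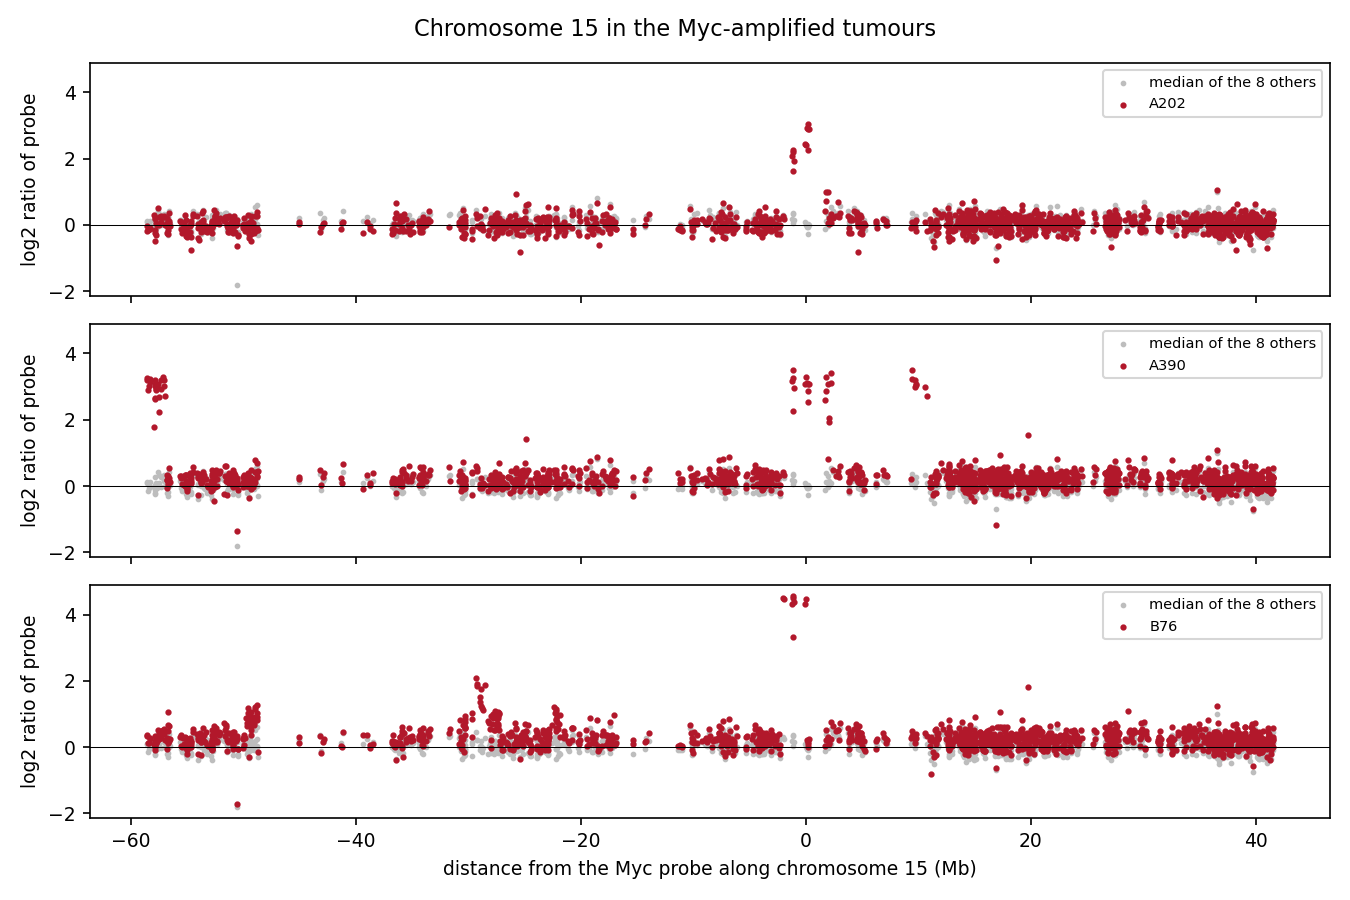
Log2 ratio of each chromosome 15 probe (vertical axis) against its distance in Mb from the Myc probe (horizontal axis). Red points show A202, A390 and B76 in separate panels, and grey points show the median of the 8 others. Myc probes stand at 2.40, 3.30 and 4.47. A390 shows 2 further peaks at about the height of its Myc segment (3.00), and B76 shows lower ones, of which the highest has a mean of 1.57.

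The first question was whether tumours with amplified Myc had more of the genome lost or gained elsewhere. Segments of at least 5 probes were called lost at a mean of -0.2 or below and gained at 0.2 or above, over the 40666 autosomal probes outside the Myc window. Segments called lost held 30.7% of probes in A202, 15.8% in A390 and 7.97% in B76. In the others the share ran from 0.0418% in A292 through a median of 0.791% to 11.9% in A18. A202 and A390 were above all 8 others, whereas B76 lay below A18 and A382 (9.09%). The group means were 18.2 ± 11.6% (SD, n = 3) and 3.70 ± 4.83% (SD, n = 8), a difference of 14.5 points. A two-sided exact permutation test, with 165 ways to pick 3 of 11 tumours, gave p = 0.0364, and 0.129 after Benjamini-Hochberg adjustment over 4 such measures, so the difference did not pass. On each slide the amplified tumour was above the mean of its 3 neighbours, by 24.5, 12.3 and 6.67 points. Without A202 the difference was 8.18 points, and with a call threshold of 0.1 it was 8.84 points (exact p = 0.291).

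Gains were not distinguishable between the groups. Segments called gained held 17.5% of probes in A202, 17.5% in A390 and 32.3% in B76. In the others the share ran from 11.6% through a median of 15.9% to 28.1%, so that only B76 was outside their range. The means were 22.5 ± 8.56% (SD, n = 3) and 18.5 ± 6.63% (SD, n = 8), with an exact permutation p of 0.436. The sign of this difference turned without B76, to -0.97 points, and when arrays were centred on the mode of their ratios, to -1.24 points.

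Called segments numbered 26 in A202, 25 in A390 and 42 in B76. The others had 11 to 35 with a median of 16.5, so the groups overlapped. The difference of 12.25 segments had an exact permutation p of 0.0970, or 0.129 adjusted. It was 6.75 without B76 and 7.62 with all of chromosome 15 left out. Segments at a mean of 1 or more outside chromosome 15 numbered 2, 1 and 2 in the amplified tumours. In A202 they were most of chromosome 11 (1.05) and a short chromosome 4 stretch over the gene Alad (1.01). The stretch over Alad was also the only such segment in A390 (1.21) and in 231 Trig (1.25). Among the others A18 had 2, 231 Trig had 1 and the remaining 6 had 0, and the exact permutation test gave p = 0.0848, or 0.129 adjusted. The difference of 1.29 was 0.833 with centring on the mode (exact permutation p = 0.400) and 0.958 without chromosome 11 (exact permutation p = 0.182). With a lower segmentation penalty it was 2.67 (exact permutation p = 0.206).

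**Figure D2:**
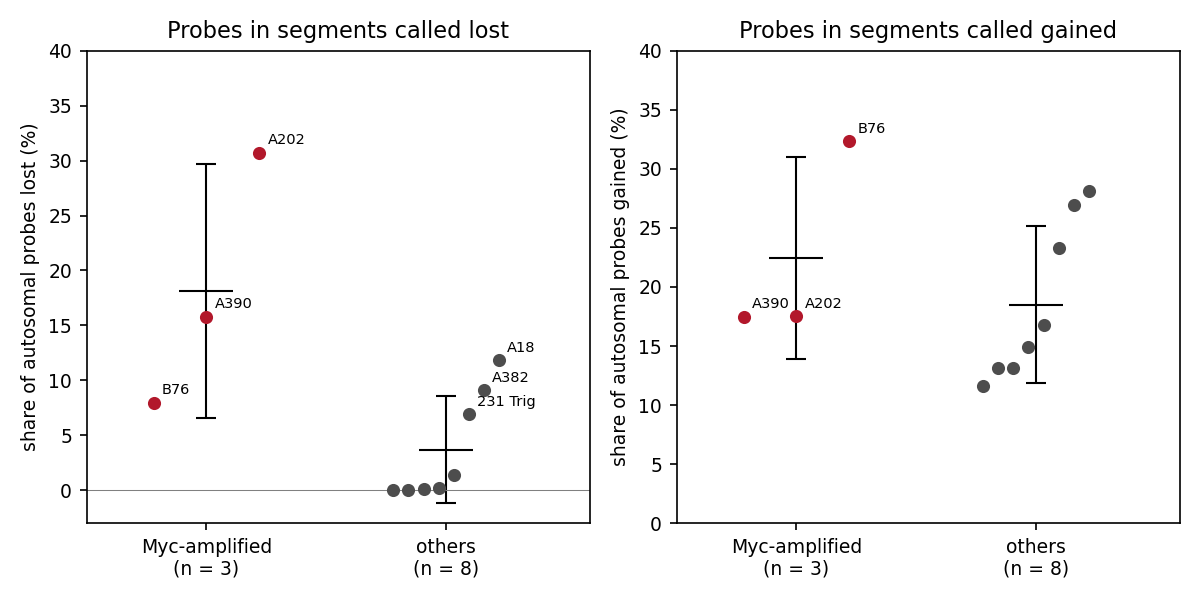
Share of autosomal probes outside the Myc window in segments called lost (left) and gained (right), in percent, with 1 point per tumour. Horizontal lines are group means and bars are ± 1 SD (3 Myc-amplified, 8 others). A202 at 30.7% and A390 at 15.8% lost stand above all others, and B76 at 32.3% gained stands highest on the right.

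Chromosomes 9, 16 and 19 were lower in A202 and A390 than in any other tumour, and B76 did not share their loss. On chromosome 9 the median ratio was -0.34 in A202, -0.40 in A390 and -0.06 in B76, against -0.11 to 0.02 (median -0.02) in the others. On chromosome 16 it was -0.33, -0.37 and -0.07, against -0.08 to -0.00 (median -0.04). On chromosome 19 it was -0.23, -0.23 and 0.00, against 0.00 to 0.27 (median 0.10). In each case A202 and A390 were below all 8 others and B76 was inside their range. The group differences were -0.23, -0.22 and -0.27. Each had an exact permutation p of 0.0242 and an adjusted p of 0.109 over 18 autosomes. Within slides the differences in A202 were -0.32, -0.28 and -0.32, and in A390 -0.33, -0.33 and -0.35. Those of B76 were -0.02, -0.05 and -0.15.

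No autosome passed the threshold, an adjusted p under 0.05 in the exact permutation test, and 5 had an unadjusted p under 0.05. Besides 9, 16 and 19 these were chromosomes 3 and 4. Chromosome 3 had a median of 0.10 in A202, 0.20 in A390 and 0.35 in B76, against -0.02 to 0.23 in the others, where A18 was highest. Its difference was 0.19 (exact permutation p = 0.0364, adjusted 0.131). It was 0.12 without B76 and 0.10 among mixed-background tumours, and the exact permutation p within slides was 0.0833. Chromosome 4 had -0.33, -0.09 and -0.10, against -0.09 to -0.03 in the others. Its difference of -0.12 (exact permutation p = 0.0242, adjusted 0.109) was -0.04 without A202. The smallest unadjusted p that 165 splits allow is 0.0121, and a lone autosome at that value would have an adjusted p of 0.218. All 5 differences kept their sign in 24 of 24 alternative settings. The number of autosomes at an unadjusted exact permutation p under 0.05 ran from 0 to 5 in these settings. It was 2 with centring on the mode, 2 without A202 and 1 without A390. Among mixed-background tumours, and without the 4 arrays of slide 1, it was 0, but there no p below 0.0952 was possible.

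**Figure D3:**
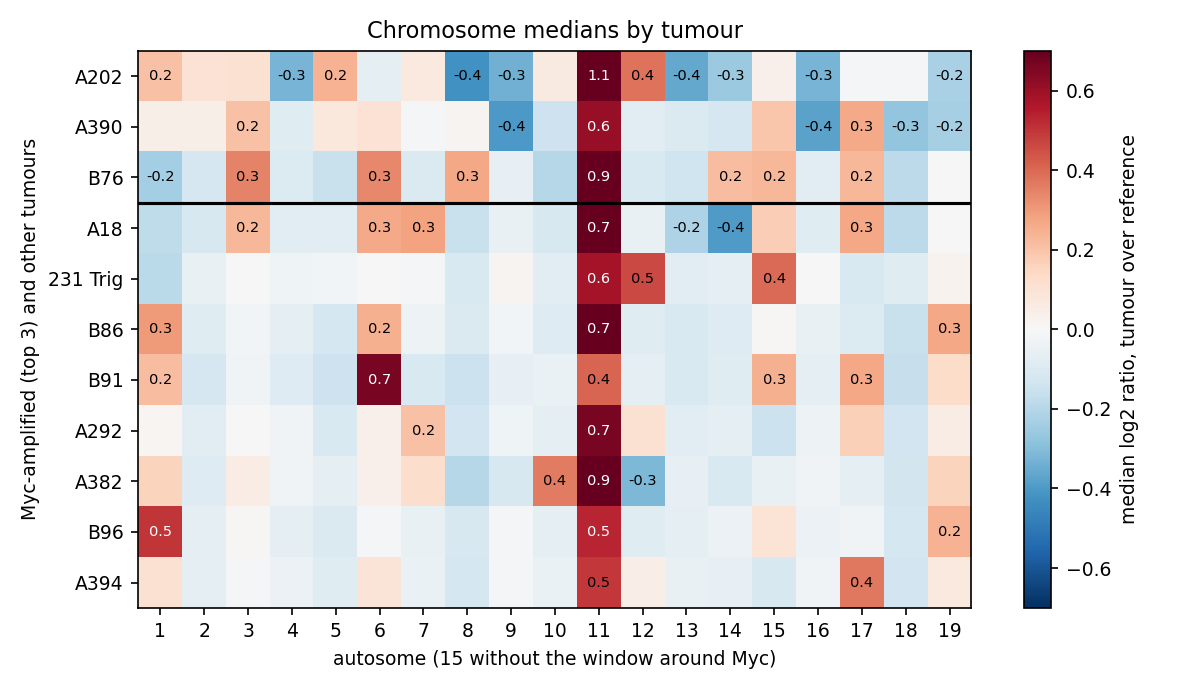
Median log2 ratio of each autosome (columns) in each tumour, with the 3 Myc-amplified tumours above the black line. Red is above and blue below 0, the typical copy number of that tumour. Colours are limited at 0.7 in either direction, and values of at least 0.2 in size are printed. A202 and A390 share blue cells on chromosomes 9 (-0.34 and -0.40), 16 (-0.33 and -0.37) and 19 (-0.23 in both).

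Counted by probes, losses shared by A202 and A390 covered both chromosomes 9 and 16 over nearly their full length and all of chromosome 19. Chromosomes 9, 16 and 19 made up 42.1% of the lost probes in A202 and 80.2% in A390. B76 lost none of them, and of the others only B91 had a lost stretch there, of 0.221% of autosomal probes. Probes lost in exactly 2 amplified tumours and in no other tumour numbered 5118, or 12.6% of those compared. They lay at chr9:3156654-20516306, chr9:22053785-124036898, chr16:3593026-31612595, chr16:34922491-98181194, along chromosome 19, and in a further 4.91 Mb stretch at chr4:47962006-52868823. In that stretch, which held Smc2, a condensin subunit, and Baat, a liver enzyme of bile acid conjugation, the median was -0.35 in both A202 and A390. It was -0.09 in B76 and -0.11 to 0.05 in the others. No probe was lost in all 3 amplified tumours.

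Fewer gains than losses were shared by 2 amplified tumours and absent from all the others. Probes gained in exactly 2 of them and in no other tumour numbered 1123, or 2.76%, and lay on chromosome 3, at chr3:3460322-90473560 and chr3:151273397-159598032 in A390 and B76. The chromosome 3 segment of A390 had a mean of 0.20, at the call threshold. Over the first stretch the median was 0.19 in A390 and 0.33 in B76, and A18, not called there, was close at 0.18. The first stretch held Fbxw7, the ubiquitin ligase subunit that marks Myc protein for degradation, Pik3ca, the catalytic subunit of PI3K, and Sox2, a stem cell transcription factor. Probes gained in all 3 numbered 2973, or 7.31%, and each was also gained in at least 2 of the other tumours. No stretch was therefore called in all amplified tumours and at most 1 other.

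Most other arm-scale changes belonged to 1 amplified tumour. A202 lost chromosome 8 (segment mean -0.43), chromosome 13 (-0.36), most of chromosome 4 (segment means of -0.31 to -0.38) and parts of chromosome 14. It gained chromosome 12 (0.37) and chromosome 5 (0.24). A390 lost chromosome 18 (-0.28) and gained chromosome 3 (0.20) and most of chromosome 17 (0.35 and 0.29). In A390 chromosome 16 was split into a shallower segment at -0.30 and a deeper one at -0.48. B76 lost most of chromosome 1 (-0.25) and gained chromosome 3 (0.34), chromosome 6 (0.32 and 0.39) and chromosome 8 (segments of 0.24 to 1.05), most of chromosome 17 (0.30 and 0.26) and part of chromosome 14 (0.34 to 0.52). Its deepest long loss was chr10:3051921-50789940, a 47.7 Mb segment at -0.78 with 275 named genes. One of them is Lats1, a Hippo pathway kinase, at -0.05 in A202, -0.34 in A390 and -1.04 in B76, against -0.59 to 0.28 in the others. Lats1 was chosen after its values were seen.

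Chromosomes 8, 14 and 1 had opposite signs within the amplified group. Chromosome 8 had a median of -0.42 in A202, 0.02 in A390 and 0.27 in B76, against -0.20 to -0.10 in the others. Chromosome 14 had -0.26, -0.12 and 0.22, against -0.40 to -0.04. Chromosome 1 had 0.20, 0.04 and -0.24, against -0.19 to 0.50. The spread within the 3 amplified tumours was therefore larger than any group difference on these chromosomes. Whole chromosomes, counted where at least 90% of probes were called, were lost 6 times in A202, 4 times in A390 and 1 time in B76. They were lost 0 to 2 times in each of the others. Whole gains, leaving out chromosome 11, numbered 2, 1 and 4 in the amplified tumours and 0 to 3 in the others. Chromosome 11 was raised in all 11 tumours, at 1.06 in A202, 0.61 in A390 and 0.88 in B76, against 0.41 to 0.89. The reference was shared, so its part in a ratio cancels in the differences between tumours.

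**Figure D4:**
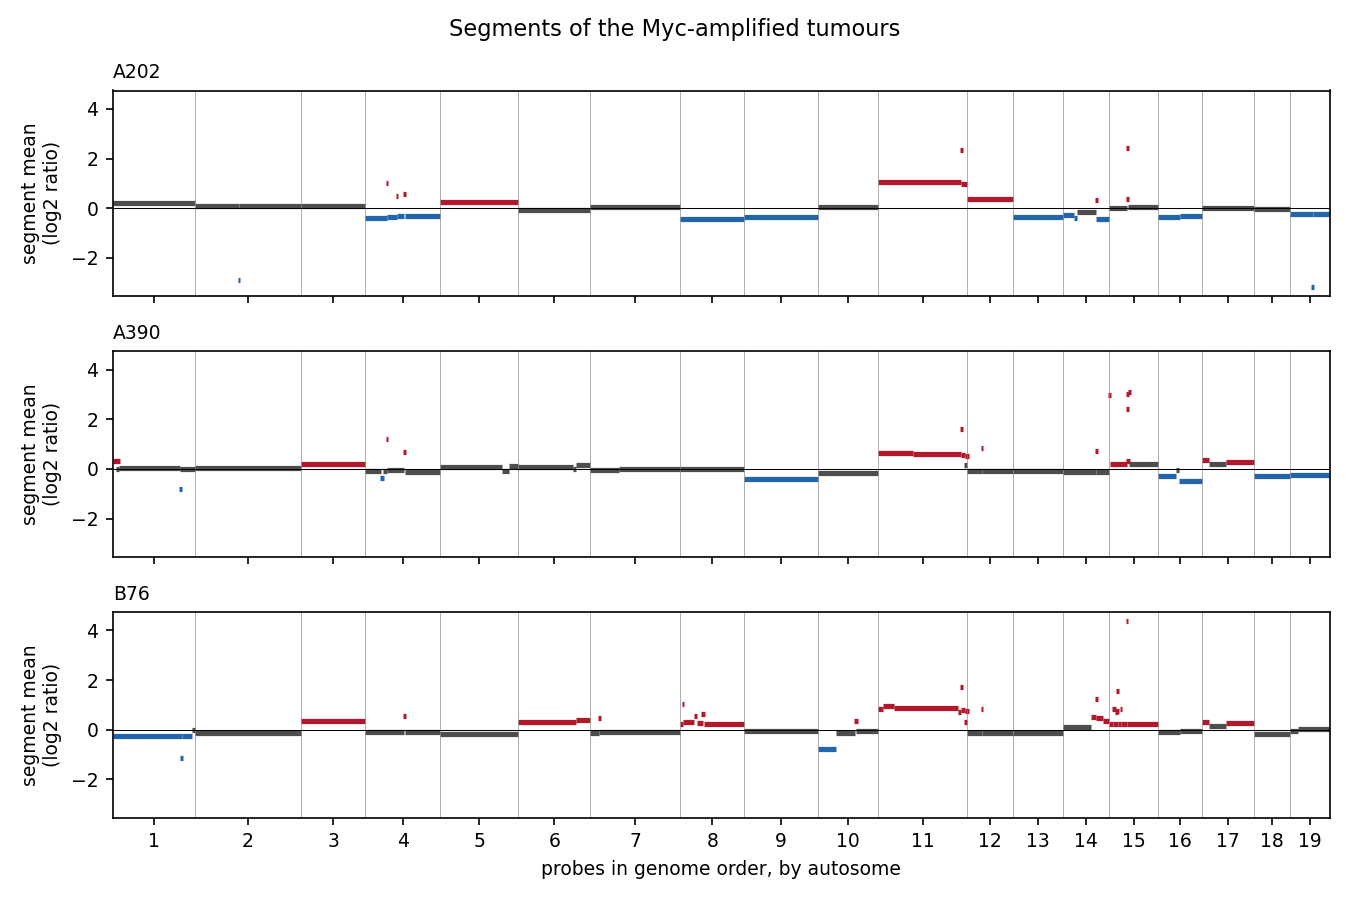
Segment means (log2 ratio, vertical axis) along the autosomes in probe order for A202, A390 and B76. Red segments were called gained, blue ones lost and grey ones neither, and short segments are drawn wider than they are. The Myc segments reach 2.42, 3.00 and 4.36 on chromosome 15.

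Cdkn2a encodes the cell cycle inhibitor p16Ink4a and p19Arf, the activator of p53. Its 2 probes averaged -0.42 in A202, -0.17 in A390 and -0.09 in B76. In the others the values were -0.06 in A18, -0.97 in A292, -3.31 in B96, -3.35 in B91, -3.52 in A394, -3.60 in A382, -4.57 in 231 Trig and -5.19 in B86. None of the amplified tumours was deeply reduced, and A18 shared their level, so the groups overlapped. In A202 the probes lay within a chromosome 4 segment at -0.35. The means were -0.23 ± 0.17 (SD, n = 3) and -3.07 ± 1.72 (SD, n = 8). The difference of 2.84 had a two-sided exact permutation p of 0.0485, and on each slide it was 2.85, 2.51 and 3.35. Counted by tumour, Cdkn2a was at -2 or below in 0 of 3 amplified and in 6 of 8 other tumours (Fisher's exact p = 0.0606, two-sided). In limma over all genes the difference had a standard error of 0.83 and an adjusted p of 0.238. This contrast was known when the tumours were chosen for comparison. Leaving out any tumour other than A18 raised the exact p to between 0.0667 and 0.133, and background correction by normexp lowered the difference to 1.66.

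Mtap, the methylthioadenosine phosphorylase gene next to Cdkn2a, read -0.60 in A202, -0.38 in A390 and -0.31 in B76. In the others it ran from -4.06 through a median of -1.84 to -0.27. Its difference of 1.53 did not pass (limma adjusted p = 0.367).

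Segments at a mean of -1 or below in the amplified tumours are given here only in part. One of those in A202 was chr2:86057282-86087288, over the olfactory receptor genes Olfr1046 and Olfr1048 at -2.90. A18 and 231 Trig also had medians of -1 or below there (-3.99 and -1.19). B76 had one at chr1:173433614-173494003, over Cd244a and Itln1 at -1.12, where 3 other tumours also had a median of -1 or below. A390 had none.

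**Figure D5:**
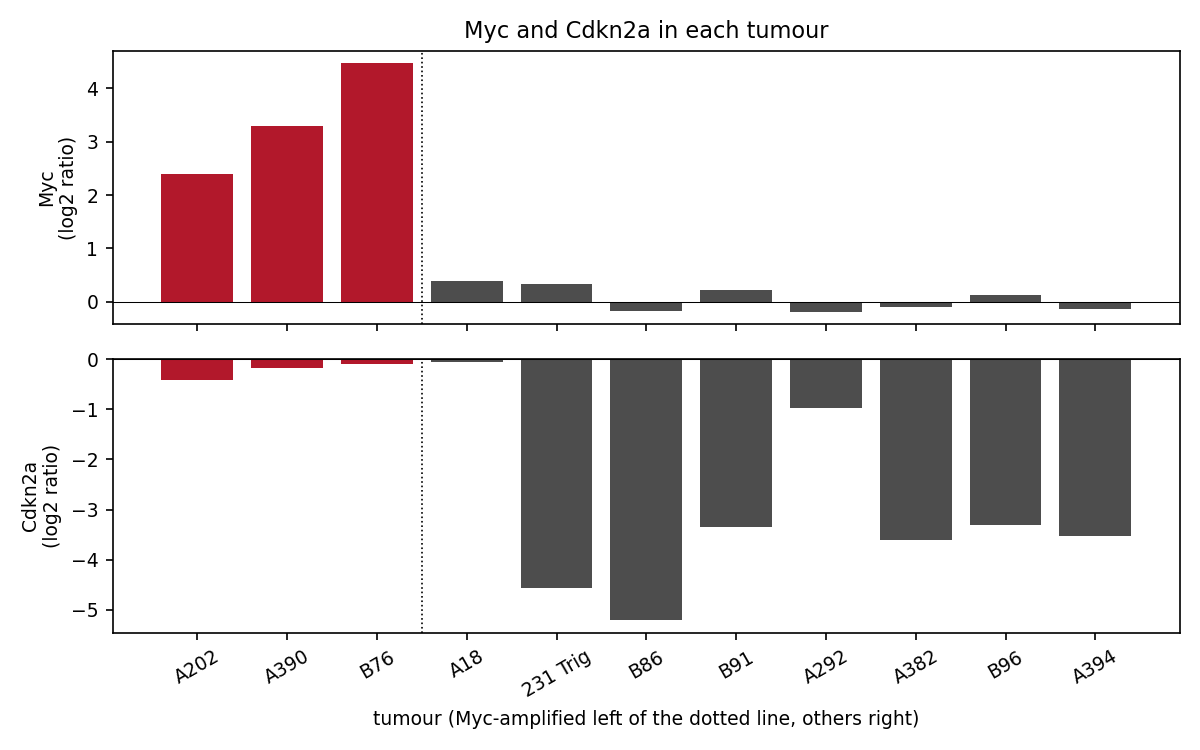
Mean log2 ratio of the Myc (top) and Cdkn2a (bottom) probes in each tumour, with the amplified tumours in red left of the dotted line. Bars start at 0, and each bar is 1 tumour. Myc chose the groups. Cdkn2a is at -0.42 or above in the red bars and at -2 or below in 6 of the 8 grey ones.

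No gene outside the Myc window differed between the groups when all genes were tested together. Of 19954 genes, 0 (0%) passed limma with an adjusted p under 0.05 and a difference of at least 0.2. At an unadjusted limma p under 0.05, 1184 genes (5.93%) were higher and 1866 (9.35%) were lower in the amplified tumours. The groups did not overlap for 145 higher (0.727%) and 368 lower genes (1.84%). Stretches of 1 Mb gave the same answer, with 0 of 1871 (0%) passing limma and 424 at an unadjusted p under 0.05, 156 higher and 268 lower. Of the lower ones, 104 lay on chromosome 9 (of 105 there), 63 on chromosome 16 (of 69) and 52 on chromosome 19 (of 52), and of the higher ones 74 lay on chromosome 3 (of 111). Inside the window 5 names passed, Myc and the cDNAs AK015045, AK036813, AK046554 and AK162412, which is a description because Myc chose the groups.

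These counts were highest without B76, the only C57BL/6J tumour among the amplified ones and the one of highest passage, and its tumour, strain and passage cannot be told apart. Without it, 1466 genes and 330 stretches of 1 Mb passed limma. Of 19776 genes then tested, 249 (1.26%) were higher and 1217 (6.15%) were lower in A202 and A390. The lower genes lay mostly on chromosomes 9 (646), 16 (293) and 19 (248), and 225 of the higher genes lay on chromosome 5. Genes and stretches of the same chromosome are not independent, so these counts are not counts of separate changes. In the exact permutation test without B76, 0 autosomes passed, with a smallest adjusted p of 0.16. The splits then possible allow no unadjusted p below 0.0444. Among mixed-background tumours only, where A202 and A390 were set against 5 others, 4 genes and 207 stretches passed.

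Lists of Myc network genes and of programmes known to respond to Myc had median differences close to that of all 19954 genes, which was 0.01. In the Myc network list, which holds partners, antagonists and regulators of Myc, 22 genes were measured outside the window, with a median difference of 0.03. None passed, and at an unadjusted limma p under 0.05 there were 2 higher and 2 lower, to be read, here and in the lists that follow, against 5.93% and 9.35% of all genes. Mlx, a partner of the Mondo proteins, read 0.81 in A202, 0.45 in A390 and 0.67 in B76, against 0.16 to 0.67 in the others (difference 0.34, limma adjusted p = 0.239). Fbxw7 read 0.31, 0.26 and 0.42, against -0.09 to 0.33. Lower values were measured for Sin3a, a corepressor scaffold used by Mxd proteins, at -0.55, -0.74 and -0.33 against -0.39 to -0.22. Mxi1, a Max-binding antagonist of Myc, was at -0.35, -0.49 and -0.19 against -0.29 to 0.03. Max itself was at 0.10, -0.42 and -0.46, against -0.62 to 0.01, and the sign of its difference (0.10) turned without A202.

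Ribosome biogenesis and translation genes numbered 21, with 0 passing, 1 higher and 2 lower at an unadjusted limma p under 0.05, against 5.93% and 9.35% of all genes, and a median difference of 0.06. The cap-binding factor Eif4e read 0.23, 0.37 and 0.56 in A202, A390 and B76, against -0.11 to 0.25 in the others. The nucleolar protein gene Nolc1 read -0.19, -0.34 and -0.01 against -0.10 to 0.24, and Rrn3, an RNA polymerase I initiation factor, read -0.44, -0.60 and -0.23 against -0.29 to -0.10. Metabolic genes also numbered 21, with 0 passing, 1 higher and 2 lower, and a median of -0.05. The pyruvate kinase gene Pkm had a difference of -0.26, and Acly, ATP citrate lyase, had 0.31. Eif4e lies on chromosome 3, Pkm on 9, Rrn3 on 16 and Nolc1 on 19, the chromosomes described above.

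In the list of p53, Arf and apoptosis genes 22 were measured and 0 passed, with 4 higher and 2 lower at an unadjusted limma p under 0.05 (5.93% and 9.35% of all genes) and a median difference of -0.02. Besides Cdkn2a the higher ones were Trp53, Mcl1 and Chek2. Trp53, on chromosome 11, read 1.39 in A202, 1.00 in A390 and 1.33 in B76, against 0.40 to 1.31 in the others (difference 0.35, limma adjusted p = 0.304). The survival factor gene Mcl1 had a difference of 0.26 and the checkpoint kinase gene Chek2 of 0.22 (0.13 without A202). Atm, the kinase that signals DNA breaks, lies on chromosome 9 and read -0.30, -0.31 and 0.14, against 0.05 to 0.26. Its difference was -0.32 (limma adjusted p = 0.238), and A202 and A390 alone were below the others. Usp7, a deubiquitinase of Mdm2 and p53, had -0.20. Mdm2, the ubiquitin ligase of p53, was at 0.15, -0.21 and -0.10, against -0.17 to 0.36, and the sign of its difference of -0.02 turned without A390, B76 or A382.

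Of 17 G1 cell cycle and Rb genes 0 passed, 1 was higher and 0 were lower at an unadjusted limma p under 0.05, with a median difference of 0.01. The higher gene was Rbl1, encoding the pocket protein p107, with 0.21 (0.11 without A202). Rb1 differed within the amplified group, at -0.61 in A202, -0.03 in A390 and 0.59 in B76, against -0.58 to 0.14 in the others, and its difference of 0.09 turned sign without B76 (-0.21). Ccnd1, cyclin D1, was at -0.85, 0.00 and -0.26, against -0.21 to 0.21, on 1 probe.

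Among 17 nerve sheath tumour suppressors and Polycomb repressive complex genes 0 passed, with 1 higher, 1 lower and a median difference of 0.08. The higher gene was Nf2, which encodes merlin, at 1.29, 0.84 and 0.98 against 0.24 to 0.95, with a difference of 0.34 that was 0.21 without A202. Nf1, the Ras regulator neurofibromin, read 1.02, 0.60 and 0.78 against 0.37 to 0.89, and both genes lie on chromosome 11. The ErbB, neuregulin and receptor kinase list held 18 genes with 0 passing, 1 higher, 0 lower and a median of 0.09. The higher gene was Areg, an EGF receptor ligand, with 0.21. The Ras, MAPK and PI3K list held 22 genes with 0 passing, 0 higher, 1 lower and a median of 0.01, and the lower gene was Rasa2, a Ras GTPase-activating protein, with -0.21.

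Schwann cell lineage genes numbered 16, with 0 passing, 0 higher, 2 lower and a median of -0.02. Gap43, a growth cone protein of immature Schwann cells and axons, lies on chromosome 16 and read -0.57 in A202, -0.71 in A390 and -0.41 in B76, against -0.35 to -0.06 in the others. Its groups did not overlap, with a difference of -0.37, a standard error of 0.09 and a limma adjusted p of 0.238. Ncam1, a neural adhesion molecule, was at -0.28, -0.58 and -0.18, against -0.23 to 0.10.

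Since no gene passed, the genes named by size were those of at least 2 probes whose groups did not overlap, at most 1 for each chromosome and direction. The higher ones were Kpna3 (difference 0.45), Chrnb2 (0.41), 1700109H08Rik (0.35), Mpp3 (0.32) and Bmf (0.28). Without B76 the difference of Chrnb2 was 0.26, and without A202 those of 1700109H08Rik and Bmf were 0.19 and 0.17. Chrnb2, a nicotinic receptor subunit on chromosome 3, read 0.39 in A202, 0.48 in A390 and 0.89 in B76, against -0.01 to 0.31 in the others. Bmf, a proapoptotic Bcl2 family member, read 0.43, 0.14 and 0.08, against -0.34 to 0.03. The lower ones were Samsn1 (-0.47), Gldc (-0.46), BC012871 (-0.42), AW551984 (-0.40) and Trim30d (-0.37), the last of which was -0.22 without A202. Samsn1, an adaptor protein gene on chromosome 16, read -0.36, -0.38 and -0.10, against 0.08 to 0.30. Gldc, the glycine decarboxylase gene on chromosome 19, read -0.20, -0.26 and 0.06, against 0.18 to 0.59. In these, A202 and A390 again lay lower than B76. BC012871, on chromosome 10, rested on B76 instead, at -0.20, -0.20 and -0.94, against -0.17 to 0.41, and its difference was -0.17 without B76.

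Outside chromosome 15 the segments at a mean of 1 or more were short, except for chromosome 11 of A202 (1.05). A202 and A390 shared chr4:62144188-62182553, at 1.01 and 1.21, over Alad, a haem synthesis enzyme, Bspry and Hdhd3. This locus is known to be duplicated in some inbred strains, and B76 (-0.04), A292, A382, A394 and all 3 other C57BL/6J tumours were near 0 there, whereas A18 and 231 Trig were at 0.89 and 1.44. Bspry itself, on 1 probe, was not raised, at 0.15 in A202 and 0.31 in A390, against 0.16 to 0.42 in the 8 tumours without amplified Myc. B76 had chr8:9475463-10516317, 14 probes at 1.05, over Abhd13, Myo16 and Fam155a, where no other tumour was above 0.24. It also had chr14:69877295-70082968, 9 probes at 1.26, over Loxl2, a lysyl oxidase, Slc25a37, a mitochondrial iron carrier, and Entpd4. In B76 the segments on either side of it were at 0.52 and 0.49. The other tumours ran from -0.54 to 0.55 in the stretch itself. A202 (0.32), A390 (0.48) and the C57BL/6J tumours B86 (0.54), B91 (0.55) and B96 (0.47) were raised there too. A18, 231 Trig, A292 and A382 were at -0.23 or below. A short stretch near the end of chromosome 11, around AK155119, was at a mean of 1 or more in every tumour of both groups. It was not counted, because stretches this high in at least 6 tumours were left out.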

How the data were processed

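The authors deposited a log10 ratio for each spot, tumour signal (red) divided by reference signal (green). They also deposited the intensity of both channels, which the scanner software had background-subtracted and dye-normalised, per the file headers. Feature Extraction 9.5 from Agilent was used and positions are in mm9, per the submitters' processing notes. The authors' deposited series table held the same log10 ratios (largest difference 0).

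Ratios were converted to log2. Of 45220 spots, 43020 were no controls, and spots of a probe were averaged to 42404 probes, 40726 on autosomes. Arrays were centred on the autosomal median, with no loess or quantile step. The 2 arrays of A382 were averaged. The Myc window, 58 to 65 Mb of chromosome 15, held 60 probes. Profiles were segmented by penalised least squares (penalty of 40 noise variances, at least 5 probes) after limiting isolated probes to 3 noise SD. Gene values are means of a gene's probes, and 28945 of 29337 accessions matched RefSeq for names. Exon and intron positions are not given, since no mm9 annotation was used here.

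Single values were tested by exact permutation of tumours, genes and 1 Mb bins (at least 5 probes) with limma 3.58.1 in R 4.3.3 over all autosomal genes. Python 3.11.15, numpy 2.4.6, pandas 2.3.3, scipy 1.17.1, numba 0.67.0 and matplotlib 3.10.9 did the rest. On simulated data for 3 against 8 tumours with 19629 genes, limma recovered 48% of 100 genes planted at 0.5 and 100% of 100 at 1.5, with 10 false calls. Each simulated gene varied independently, whereas the measured ratios move together along chromosomes, so these rates need not hold for the measured data. Median net signals were 612 to 809 (reference) and 538 to 1237 (tumour), with 0 saturated spots and 99.4% or more of probes well above background. The number of arrays limits precision.

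Genes were named by this rule: the 5 highest and 5 lowest differences outside chromosome 15, at most 1 per chromosome and direction, from passing genes or else from genes of at least 2 probes whose groups did not overlap; up to 4 per list with the smallest p, and Myc, Cdkn2a, Mtap, Trp53, Mdm2, Nf1, Max and Rb1; up to 3 genes of each high segment. The tumours, the lists and the rules were chosen with earlier results of these data known. Alternatives changed centring, background correction, dye normalisation, call thresholds, segmentation, tumours left out, strain and slide. Results on a few genes are not reported here.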

Additional observations from a re-analysis of the deposited data

Results flagged for a closer look

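Among the 8 tumours without amplified Myc, single tumours stood far from the rest in 9 of 97 sets of values checked. Chance alone gives about 1 in 20 for independent sets. Sets from the same chromosome are not independent, so no excess over chance can be read from the count. The tumours that stood apart bear on the comparison because they set the edge of the range against which A202, A390 and B76 were read. On chromosome 3, where A390 (0.20) and B76 (0.35) were high, A18 stood at 0.23, next to 0.05. For chromosome 14, A18 was at -0.40, next to -0.11, and on chromosome 13 it was at -0.21, next to -0.11. On chromosome 6, B91 was at 0.67, next to 0.26. On chromosome 10, A382 was at 0.36, next to -0.04. A382 also stood apart for Mdm2 (0.36, next to -0.05) and BC012871 (0.41, next to 0.02), both on that chromosome. It did so for Mlx too (0.67, next to 0.37). For Bmf, 231 Trig was at -0.34, next to -0.10.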

How the results depend on the processing

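Of 212 alternative values for the main measures, 190 kept their direction and side of the threshold. The share of probes gained turned sign with centring on the mode (-1.24) and without B76 (-0.97; 6.45 at the highest with 1 tumour left out). The Cdkn2a difference of 2.84 lost its exact permutation p under 0.05 within strain backgrounds (2.84, p = 0.0714), within slides (2.86, p = 0.0833), among mixed-background tumours only (2.25, p = 0.286) and without the 4 arrays of slide 1, an alternative chosen after seeing the data (2.82, p = 0.0952). With 1 tumour left out it ran from 2.54 to 3.27. Genes passing limma numbered 0 to 1466 with 1 tumour left out, 4 among mixed-background tumours and 1 without slide 1. Bins numbered 0 to 330 with 1 tumour left out, 47 with strain as covariate and 207 among mixed-background tumours. The causes of these changes were not tested, except that fewer tumours entered the fits that left some out. Of 50 named genes, 46 kept their sign in every alternative run. Pdgfra turned without A202, with a range of -0.0024 to 0.34 when 1 tumour was left out. Max turned without A202 (-0.080, up to 0.20 with 1 tumour left out) and without slide 1 (-0.024). Mdm2 turned without A390 (0.063), A382 (0.041) and B76 (0.0093), with a lowest value of -0.12. Rb1 turned without B76 (-0.21, up to 0.39 with 1 tumour left out) and among mixed-background tumours (-0.13). Without B76, 13 of the 50 named genes passed limma, where of all 19776 genes 1.26% passed as higher and 6.15% as lower. Many of the named genes were picked by small p or separated groups in these same data. Their share is therefore no result about them. No paired analysis was possible because replicate numbers were given in accession order and pair no tumours. The 3 amplified tumours, 1 Myc probe and lack of a dye swap limit every comparison.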
